A study of Mus musculus with 25 samples.

Results

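The genes described here are 9 T-box transcription factors, Tbx1, Tbx2, Tbx3, Tbx4, Tbx5, Tbx15, Tbx18, Tbx20 and Tbx22, followed through 5 mesenchymal tissues of the mouse embryo. They were chosen by name, by matching the Ensembl gene identifiers of the count table to these symbols, and they make up 9 of its 35880 genes. Expression was measured by RNA-Seq in wild-type C57Bl/6JOlaHsd embryos, in 25 samples of mesenchyme, the connective tissue on which the epithelium of a gland grows. The tissues were the fat pad precursor at E16.5 (E16.5 FP), the mesenchyme next to the mammary sprout at E16.5 (E16.5 MM), the mesenchyme around the mammary bud at E13.5 (E13.5 MM), E13.5 ventral skin mesenchyme taken away from the mammary glands (E13.5 VM) and salivary gland mesenchyme at E13.5 (E13.5 SM). Each tissue had 5 samples. A sample pooled tissue of 2 to 3 embryos from one litter after the epithelium had been removed with enzymes. The embryos at E16.5 were female, and sex is not specified for E13.5. Stage and sex thus cannot be told apart in any comparison across ages. Where such a comparison also joins different tissues, tissue cannot be told apart from them either. The 5 pools of a tissue came from 3 litters, and the sources used here do not say which pools shared a litter. The p-values thus measure the spread between pools.

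Total counts ran between 20678150 and 34448304 per sample. The fat pad and salivary markers matched the labels. Fabp4, a fatty acid carrier of fat cells, lay between 10960 and 23350 normalized counts in E16.5 FP and at 2920 or less in the other 20 samples. Barx1, a homeobox factor of jaw and salivary mesenchyme, lay between 2302 and 2873 in E13.5 SM and at 9.42 or less elsewhere. Markers of other cells moved with the tissues. The summed level of 10 skeletal muscle genes was 2043 to 19950 CPM (counts scaled to library size) in E16.5 FP, 759 to 3287 CPM in E16.5 MM and 97.1 to 636 CPM in the E13.5 tissues. Replicate 5 of E16.5 FP had the lowest of the fat pad values. The sum of 7 genes of peripheral neurons and Schwann cells was 260 to 305 CPM in E13.5 SM and 34.1 to 75.5 CPM elsewhere. None of the muscle or neural genes was at 0 in the tissues where its list was high.

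T-box factors bind DNA through a shared domain, the T-box, and either activate or repress their target genes. Many act in pairs of paralogs that arose by gene duplication, and Tbx2 with Tbx4 and Tbx3 with Tbx5 still lie side by side in the mouse genome. The family is known for dividing the body into regions. Tbx5 and Tbx4 act in the buds of the forelimb and the hindlimb, Tbx15 sets the border between dorsal and ventral skin pigment, Tbx1 acts in the pharynx, Tbx20 in the heart and Tbx22 in the palate. Tbx3 has the closest tie to the tissue studied: mice without it do not form normal mammary buds, and people with one defective copy have ulnar-mammary syndrome.

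Because reads are assigned to genes by sequence, the coding sequences of the closest paralogs are shown first. They come from the GENCODE M21 transcripts on GRCm38, the assembly also called mm10. Each pair is the 60-base coding stretch, within 1 exon of both genes, at which the paralogs matched best without a gap among the stretches searched. It is read 5′ to 3′ on the coding strand. The search used the transcript of each gene with the longest coding sequence. It kept to stretches in the same reading frame that shared a short exact run at the start, the middle or the end. Capitals mark the bases that differ between the members of a pair. Tbx2 and Tbx3 were identical at 53 of 60 bases, in exon 1 of both genes, at chr11:85833430-85833489 (plus strand) and chr5:119672333-119672392 (plus strand).
Tbx2: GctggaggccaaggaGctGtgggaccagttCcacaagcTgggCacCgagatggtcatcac
Tbx3: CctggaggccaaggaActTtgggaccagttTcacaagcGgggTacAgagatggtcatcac
Tbx4 and Tbx5 were identical at 51 of 60 bases, in exon 4 of Tbx4 at chr11:85899826-85899885 (plus strand) and exon 5 of Tbx5 at chr5:119841829-119841888 (plus strand).
Tbx4: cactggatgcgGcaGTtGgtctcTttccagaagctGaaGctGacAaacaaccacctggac
Tbx5: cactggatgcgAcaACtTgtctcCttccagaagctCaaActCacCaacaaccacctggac
Tbx15 and Tbx18 were identical at 53 of 60 bases, in exon 4 of both genes, at chr3:99314754-99314813 (plus strand) and chr9:87724404-87724463 (minus strand).
Tbx15: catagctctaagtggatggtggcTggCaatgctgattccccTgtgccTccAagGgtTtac
Tbx18: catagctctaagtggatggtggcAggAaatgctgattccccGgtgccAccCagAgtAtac

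In these best-matched stretches the longest run of identical bases was 14 for Tbx2 and Tbx3, 15 for Tbx4 and Tbx5 and 23 for Tbx15 and Tbx18. Over whole transcripts, none of these pairs shared a word of 31 bases. Among all members the shared words were 2 between Tbx4 and Tbx20 and 3 between Tbx5 and Tbx22. Against all other annotated genes, on either strand, the share of words held in common was 19.5% for Tbx18 and at most 1.33% for the other members. Tbx18 overlaps D030062O11Rik on the opposite strand, Tbx3os1 runs antisense over the start of Tbx3, and Gm43120 lies antisense within Tbx15. These transcripts were not analysed here. Strand use in counting is not stated, so reads of Tbx3, Tbx15 and Tbx18 cannot be told apart from those of their antisense partners where they overlap. RefSeq promoter windows on GRCm38.p6, of 250 bases before to 50 bases after a start, were found for 5 members, with 8 windows in all. No window was found for Tbx2, Tbx3, Tbx5 or Tbx15. The T-box motif GGTGTGA, searched on both strands, was in 0 of these 8 windows and in 3.98% of the 32851 windows of all genes. At so low a share, 8 windows are too few to tell the members from all genes.

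All 9 members passed the expression filter, which 17657 genes of the series passed. Their levels are given as normalized counts, that is estimated counts scaled by TMM factors to the mean library size, and levels of different genes are compared only after division by exon length in kilobases (kb). Summed over the 9 members, the count per kb was 1440 ± 268 in E16.5 FP, 1684 ± 221 in E16.5 MM and, at E13.5, 2081 ± 142 in MM, 999.5 ± 82.1 in VM and 1118 ± 101 in SM (SD over 5 samples). The leading genes differed by tissue. Tbx15 and Tbx18 took 40.2% ± 3.29 and 33.6% ± 3.31 of this sum in E16.5 FP. In E16.5 MM the leading gene was Tbx3 at 28.0% ± 5.03, with Tbx18 at 20.5% ± 0.9903 and Tbx2 at 20.4% ± 1.66. E13.5 MM was led by Tbx15 at 34.2% ± 2.44 and Tbx18 at 26.4% ± 1.48. Tbx5 at 29.1% ± 2.08 and Tbx18 at 26.8% ± 1.96 led in E13.5 VM. In E13.5 SM, Tbx3 held 35.02% ± 4.82, Tbx2 30.9% ± 2.99 and Tbx22 17.3% ± 4.59, while Tbx15 held 1.31% ± 0.448 and Tbx5 0.0994% ± 0.134. In bulk tissue a smaller share of expressing cells and less RNA per cell cannot be told apart.

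**Figure D1:**
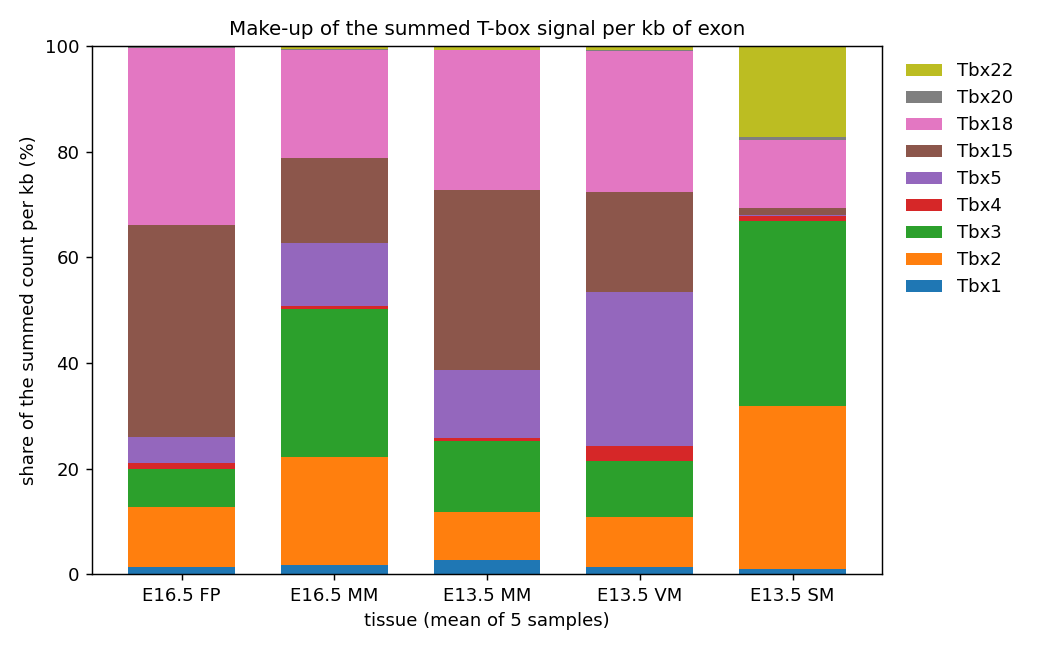
Stacked bars give the mean share of each of the 9 T-box genes, in percent of their summed normalized count per kb of exon, in each tissue (mean of 5 samples). Tbx15 and Tbx18 fill most of the E16.5 FP bar, at 40.2% and 33.6%, and Tbx3, Tbx2 and Tbx22 most of the E13.5 SM bar, at 35.02%, 30.9% and 17.3%.

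Differences between tissues were tested for all 10 pairs of the 5 tissues with edgeR's quasi-likelihood test, and calls required adjusted p below 0.05, an absolute log2 fold change no smaller than 0.58 and, in whichever tissue was higher, more than 50 normalized counts on average. The first tissue named is on top of each fold change, and comparisons that name the same tissue share its samples. The share of all tested genes that met the same criterion is given in brackets. Of the 9 members, 7 were called for E13.5 MM over E13.5 VM (6.45%), with 6 higher (3.79%) and 1 lower (2.66%), and the samples of the 2 tissues did not overlap for 7 (14.3%). There the median size of the log2 fold change was 1.04 over the members and 0.18 over all tested genes. For E16.5 MM over E13.5 MM, 6 members were called (19.8%), with 2 higher (12.6%) and 4 lower (7.16%), and 6 did not overlap (36.3%). E16.5 FP differed from E16.5 MM in 6 members (14.1%), with 2 higher (6.78%) and 4 lower (7.34%), and 5 did not overlap (22.5%). From E13.5 MM it differed in 4 (25.5%), all lower (11.2%), and 3 did not overlap (38.3%). From E13.5 VM it differed in 5 (27.4%), with 3 higher (15%) and 2 lower (12.4%), and 6 did not overlap (39.2%). E16.5 MM differed from E13.5 VM in 4 members (23.3%), with 3 higher (13.7%) and 1 lower (9.55%), and 5 did not overlap (39%).

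Against E13.5 SM, each of the other tissues had 4 members called higher. E16.5 FP differed in 8 members (39.5%), with 4 higher (20.2%) and 4 lower (19.3%), and 6 did not overlap (52.1%). E16.5 MM differed in 6 (35.1%), with 4 higher (18.5%) and 2 lower (16.6%), and 5 did not overlap (51.5%). E13.5 MM differed in 7 (30.1%), with 4 higher (14.5%) and 3 lower (15.6%), and 7 did not overlap (46.7%). E13.5 VM differed in 8 (30.2%), with 4 higher (14.7%) and 4 lower (15.6%), and 8 did not overlap (43.7%). The share of members called lay above the share of all genes in all 10 comparisons, and the gap was widest for E13.5 MM over E13.5 VM. The share without overlap did not lie above it in E16.5 FP over E13.5 MM (3 of 9, against 38.3%). The members were chosen with earlier results of these data known, so these shares are a description and not a test of the family.

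**Figure D2:**
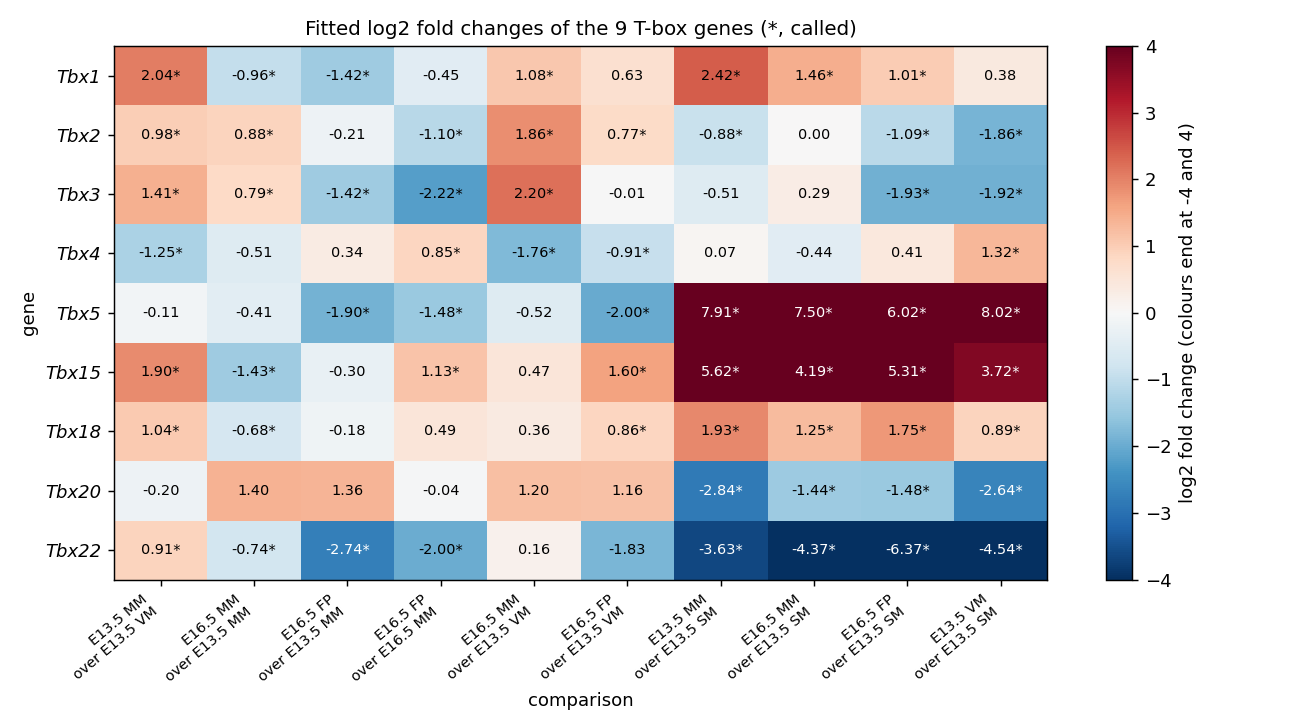
Each cell gives the fitted log2 fold change of a T-box gene (rows) in 1 comparison of tissues (columns, the first-named tissue over the second), with colours from blue (lower) to red (higher) and an asterisk where the gene was called. Tbx5 and Tbx15 are red and Tbx22 blue in the 4 columns against E13.5 SM, and the column of E13.5 MM over E13.5 VM is red for 6 called genes and blue for Tbx4 at -1.25.

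Tbx3, a transcriptional repressor needed for mammary bud formation, is encoded at chr5:119670669-119684724 on the plus strand. It had 572, 844, 682, 540 and 780 normalized counts in the samples of E16.5 FP and 3010, 3488, 2590, 2127 and 4673 in those of E16.5 MM. The E13.5 samples had 2011, 2123, 1879, 1564 and 1599 in MM, 649, 961, 595, 714 and 539 in VM, and 2619, 1972, 2407, 3423 and 2606 in SM. All 15 samples of the mammary mesenchyme at both stages and of SM lay above all 10 samples of FP and VM. Tbx3 was 2.66-fold higher in E13.5 MM relative to E13.5 VM (log2 fold change 1.41 ± 0.192 SE, adjusted p = 8.35e-06). It was 1.73-fold higher in E16.5 MM relative to E13.5 MM (0.79 ± 0.187, adjusted p = 0.00124), with its lowest E16.5 sample at 2127 and its highest E13.5 sample at 2123. Without replicate 5 of E16.5 MM, the highest sample, this log2 fold change was 0.62 and was still called. The summed level of 7 epithelial markers was 102, 24.2, 14.1, 55.3 and 92.4 CPM in E16.5 MM, in the order of the Tbx3 values above. In E13.5 MM that sum was 3.60 to 14.1 CPM. The part of epithelium in the Tbx3 levels was not tested. In E16.5 FP Tbx3 was lower than in E16.5 MM of the same age, by a log2 fold change of -2.22 ± 0.196 (adjusted p = 4.35e-09). FP and VM, the low tissues, did not differ beyond their spread (-0.01 ± 0.191, adjusted p = 0.953). Among the high tissues, E16.5 MM and E13.5 SM were not told apart (0.29 ± 0.186, adjusted p = 0.176). E13.5 MM lay below E13.5 SM by a log2 fold change of -0.51, short of the fold needed for a call (adjusted p = 0.0225), and without replicate 2 of E13.5 SM this difference was -0.60 and was called (adjusted p = 0.0104).

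**Figure D3:**
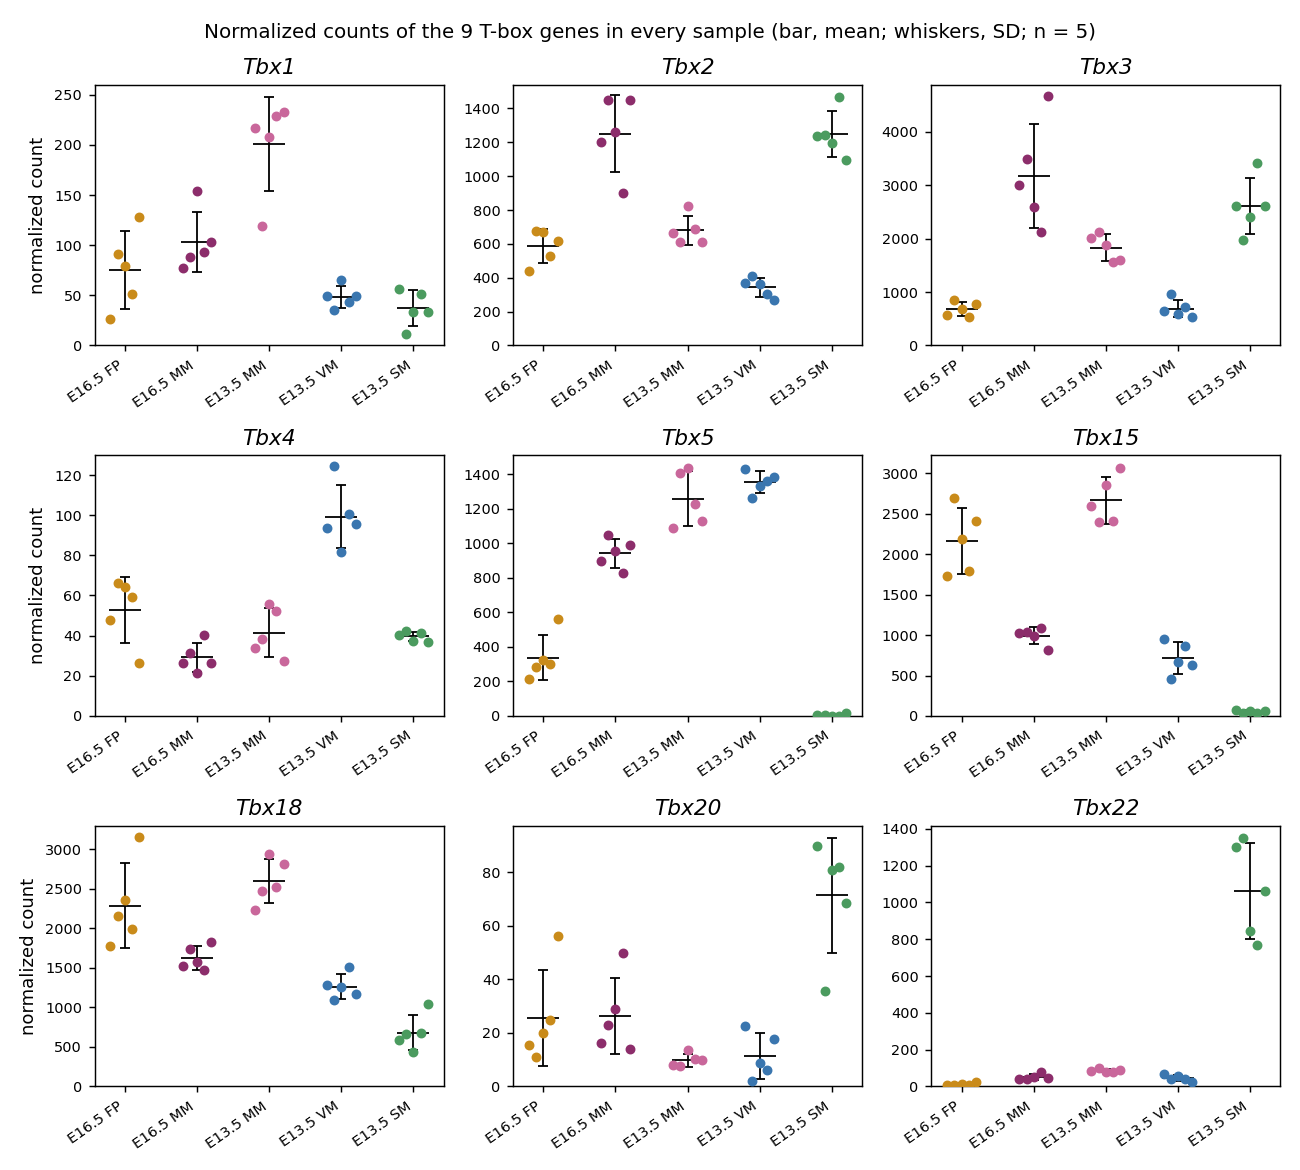
Each panel plots 1 T-box gene, with normalized counts on a linear vertical axis that starts at 0 and the 5 tissues along the horizontal axis. Points are the 5 samples of a tissue, the horizontal bar is their mean and the whiskers are the SD. Tbx3 is low in E16.5 FP and E13.5 VM, Tbx5 and Tbx15 lie near 0 in E13.5 SM, and Tbx22 is above 99.5 in E13.5 SM only.

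Tbx2, a paralog of Tbx3 and also a repressor, lies at chr11:85832551-85841948 on the plus strand. Its 5 values were 438, 677, 669, 531 and 615 in E16.5 FP and 1203, 1448, 1261, 898 and 1450 in E16.5 MM. They were 666, 613, 824, 686 and 609 for MM at E13.5, 367, 413, 363, 306 and 270 for VM, and 1240, 1243, 1196, 1466 and 1095 for SM. All samples of E16.5 MM and E13.5 SM lay above all others, and all of E13.5 VM below all others. As with Tbx3, the level was higher in E13.5 MM relative to E13.5 VM (0.98 ± 0.137, adjusted p = 7.77e-06), higher in E16.5 MM relative to E13.5 MM (0.88 ± 0.135, adjusted p = 7.18e-06) and lower in E16.5 FP relative to E16.5 MM (-1.10 ± 0.136, adjusted p = 5.11e-07). The means of E16.5 MM and E13.5 SM were 1252 ± 227 and 1248 ± 136 (log2 fold change 0.00 ± 0.133). E16.5 FP and E13.5 MM did not differ beyond their spread either (-0.21 ± 0.135, adjusted p = 0.186). The calls of Tbx2 and Tbx3 differed in 3 comparisons, and the difference between the genes was not tested. Over E13.5 VM, E16.5 FP had 1.70-fold more Tbx2 (0.77 ± 0.137, adjusted p = 3.28e-05), and Tbx3 was not called. Over E13.5 MM, E16.5 FP was called lower for Tbx3 (-1.42 ± 0.192, adjusted p = 1.12e-06), without overlap, and not for Tbx2. Over E13.5 SM, E13.5 MM was called lower for Tbx2 (-0.88 ± 0.134, adjusted p = 3.74e-06) and not for Tbx3. Per kb of exon, the ratio of Tbx2 to Tbx3 lay between 1.40 and 1.80 in the samples of E16.5 FP, between 0.567 and 0.889 in E16.5 MM, between 0.528 and 0.801 in E13.5 MM, between 0.785 and 1.11 in E13.5 VM and between 0.768 and 1.15 in E13.5 SM. E16.5 FP was thus the tissue in which all 5 samples had more Tbx2 than Tbx3.

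Genes known from other tissues to be repressed by Tbx2 or Tbx3 formed a list of 8, of which 6 were tested. Between E13.5 MM and E13.5 VM, 1 was higher (3.79% of all tested genes) and 1 lower (2.66%). The median log2 fold change was -0.24 over the list and -0.01 over all genes. The lower one was Gja1, the gap junction protein connexin 43, at 977 ± 151 in E13.5 MM, against 2242 ± 399 in E13.5 VM. The higher one was Gja5, connexin 40, at 204 ± 70.4 in E13.5 MM, against 96.6 ± 25.1 in E13.5 VM. Between E16.5 MM and E13.5 MM, 5 of the 6 were called, all higher, while 12.6% of all tested genes were called higher, and the list's median was 0.94 against 0.01 over all genes. They included Cdkn1a, an inhibitor of the cell cycle, at 115 ± 26.3 in E16.5 MM, against 52 ± 6.42 in E13.5 MM, and Gja1, at 1742 ± 107 in E16.5 MM, against 977 ± 151 in E13.5 MM. They also included Cdh1, the epithelial cadherin, at 118 ± 94.2 in E16.5 MM, against 15.9 ± 5.63 in E13.5 MM. The summed level of 7 epithelial markers, of which Cdh1 is one, was 14.1 to 102 CPM in E16.5 MM and 3.60 to 14.1 CPM in E13.5 MM, and its part in the result was not tested. For E16.5 FP over E16.5 MM, where Tbx2 and Tbx3 were lower, 2 of the 6 were higher (6.78%) and 1 lower (7.34%). The list's median there was -0.19. Cdkn1a was higher, at 355 ± 224 against 115 ± 26.3, as was Gja5, at 722 ± 160 against 422 ± 23.5. Cdh1 was lower, at 29.3 ± 33.5 against 118 ± 94.2.

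Tbx5, the forelimb and heart factor, lies 147.9 kb downstream of Tbx3, at chr5:119832668-119885219 on the plus strand. It had 214, 285, 326, 304 and 561 normalized counts in E16.5 FP and 897, 1047, 954, 830 and 988 in E16.5 MM. Values at E13.5 were 1088, 1409, 1437, 1226 and 1127 in MM, 1432, 1265, 1331, 1359 and 1385 in VM, and 3.59, 3.83, 0.962, 0 and 17.9 in SM. The E13.5 SM values stand for 27 estimated counts over 5 libraries, 18 of them in replicate 5, and Tbx5 was all but absent there. Against E13.5 SM it was 64.7-fold higher in E16.5 FP, 181-fold in E16.5 MM and, at E13.5, 241-fold in MM and 259-fold in VM, with a smallest log2 fold change of 6.02 ± 0.379 (adjusted p = 1.88e-12). These folds rest on the few counts of E13.5 SM: without its replicate 5 the log2 fold change of E13.5 MM over E13.5 SM was 9.15 in place of 7.91, and that of E13.5 VM over E13.5 SM was 9.25 in place of 8.02. Among the trunk tissues, E13.5 MM and E13.5 VM did not differ beyond their spread (-0.11 ± 0.231, adjusted p = 0.844). E16.5 MM lay below E13.5 MM without overlap but was not called (-0.41 ± 0.233, adjusted p = 0.144). E16.5 FP was 0.358-fold of E16.5 MM (-1.48 ± 0.242, adjusted p = 3.72e-05), again without overlap. Its highest sample, at 561, was replicate 5, the fat pad sample with the fewest muscle counts, and without it the log2 fold change was -1.75 (adjusted p = 1.61e-06).

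Tbx4, the hindlimb factor and the paralog of Tbx5, lies 44.5 kb downstream of Tbx2, at chr11:85886422-85916097 on the plus strand. Its level was low in all tissues. It had 47.8, 66.4, 64.4, 59.1 and 26.4 normalized counts in E16.5 FP and 26.4, 31.2, 21.6, 40.5 and 26.2 in E16.5 MM. At E13.5 it had 33.9, 38.3, 55.6, 52.5 and 27.4 in MM, 93.6, 125, 81.6, 101 and 95.8 in VM, and 40.4, 42.2, 37.5, 41.4 and 36.8 in SM. All 5 samples of VM lay above the other 20. Tbx4 was the only member lower in E13.5 MM relative to E13.5 VM among the 7 called there (-1.25 ± 0.231, adjusted p = 0.000298), and it was also lower than in E13.5 VM in E16.5 MM (-1.76 ± 0.238, adjusted p = 8.46e-07) and E16.5 FP (-0.91 ± 0.229, adjusted p = 0.00151). Below VM, the neighbours in the order, E16.5 FP, E13.5 MM, E13.5 SM and E16.5 MM, did not differ beyond their spread from one to the next. E16.5 FP was called higher than E16.5 MM (0.85 ± 0.239, adjusted p = 0.00661), a call that was lost without replicate 2 of E16.5 FP (0.75, adjusted p = 0.023, with the mean under 50). Without replicate 5 of E16.5 FP, which had the lowest Tbx4 of that tissue, FP was also called over E13.5 SM (0.59, adjusted p = 0.0148), where with all samples it was not (0.41 ± 0.233, adjusted p = 0.116).

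The genes of each linked pair differed in their calls for E13.5 MM over E13.5 VM. Tbx2 was higher there and its neighbour Tbx4 lower, and Tbx3 was higher while its neighbour Tbx5 was not called. The difference between Tbx3 and Tbx5 was not tested. Tbx2 and Tbx4 were called in the same direction in none of the 10 comparisons. Tbx3 and Tbx5 were both called lower in the fat pad relative to E16.5 MM (-2.22 and -1.48) and to E13.5 MM (-1.42 and -1.895). Relative to E13.5 SM their calls were opposite for the fat pad (-1.93 and 6.02) and for E13.5 VM (-1.915 and 8.02). Per kb of exon, the ratio of Tbx2 to Tbx4 was 8.43 to 21.8 in the samples of E16.5 FP, 20.8 to 54.7 in E16.5 MM and, at E13.5, 12.3 to 20.9 in MM, 2.65 to 4.17 in VM and 27.7 to 33.2 in SM. Tbx2 exceeded Tbx4 in all 25 samples, and the ratio of every E13.5 VM sample was below that of every other sample. The ratio of Tbx3 to Tbx5 was 0.981 to 2.09 in E16.5 FP, 1.81 to 3.34 in E16.5 MM and, at E13.5, 0.900 to 1.31 in MM and 0.275 to 0.536 in VM. In 4 samples of E13.5 SM it was 103 to 1765, and the other had no count of Tbx5. Between the paralogs Tbx5 and Tbx4 the ratio was 3.12 to 15.5 in E16.5 FP, 14.9 to 32.1 in E16.5 MM and, at E13.5, 17.0 to 29.9 in MM and 7.39 to 11.9 in VM. In E13.5 SM it was 0 to 0.354, so that Tbx4 exceeded Tbx5 in all 5 salivary samples and in none of the other 20.

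**Figure D4:**
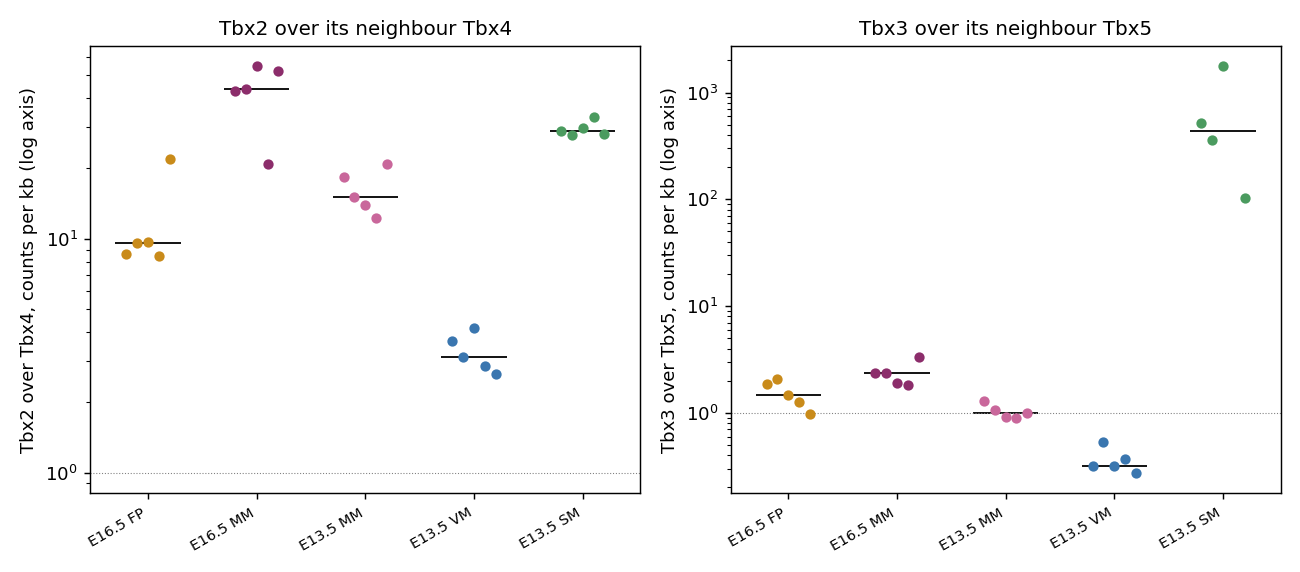
The left panel plots the ratio of Tbx2 to its neighbour Tbx4 and the right panel that of Tbx3 to its neighbour Tbx5, as normalized counts per kb of exon on log axes, with 1 point per sample, a bar at the median and a dotted line at 1. E13.5 VM has the lowest values in both panels, at most 4.17 and 0.536, and E13.5 SM has 4 points in the right panel, from 103 to 1765, since 1 sample had no count of Tbx5.

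Genes that act with Tbx4 or Tbx5 in limb fields formed a list of 10, all of them tested. Between E13.5 MM and E13.5 VM, 6 were higher (3.79% of all tested genes) and 1 lower (2.66%). The median log2 fold change was 0.76 over the list and -0.01 over all genes. The lower one was Pitx1, a hindlimb factor that acts upstream of Tbx4 in limb buds, at 22.8 ± 4.47 in E13.5 MM, against 474 ± 148 in E13.5 VM (-4.36 ± 0.220, adjusted p = 1.38e-12). Relative to E13.5 VM, Pitx1 and Tbx4 were both lower in E16.5 FP, E16.5 MM and E13.5 MM. In E13.5 SM they parted: Pitx1 had its highest level there, 4028 ± 711, while Tbx4 had 39.6 ± 2.37. Fgf10, the growth factor that lies downstream of Tbx5 in the forelimb bud, had 1391 ± 304 normalized counts in E16.5 FP, 870 ± 102 in E16.5 MM and, at E13.5, 234 ± 26.5 in MM, 89.2 ± 12.7 in VM and 4867 ± 598 in SM. Its mean was highest in the tissue with the lowest mean of Tbx5 and lowest in the tissue with the highest.

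Tbx15, known for its part in dorsal skin identity and in muscle and fat, lies at chr3:99240381-99354259 on the plus strand and had the highest mean per kb of the members, 712 in E13.5 MM. It had 1735, 2695, 2181, 1788 and 2408 normalized counts in E16.5 FP and 1020, 1041, 989, 1085 and 811 in E16.5 MM. The E13.5 samples had 2599, 2401, 2854, 2409 and 3068 in MM, 954, 459, 665, 869 and 625 in VM, and 70.0, 37.4, 66.4, 35.1 and 62.6 in SM. All samples of E16.5 FP and E13.5 MM lay above all of E16.5 MM, E13.5 VM and E13.5 SM. Tbx15 was 3.73-fold higher in E13.5 MM relative to E13.5 VM (1.9 ± 0.176, adjusted p = 2.15e-08). In E16.5 MM it was 0.371-fold of E13.5 MM (-1.43 ± 0.173, adjusted p = 3.49e-07), a change opposite in direction to those of Tbx2 and Tbx3. In E16.5 FP it was 2.19-fold of E16.5 MM (1.13 ± 0.172, adjusted p = 1.38e-05) and did not differ beyond the spread from E13.5 MM (-0.30 ± 0.169, adjusted p = 0.137). E16.5 MM and E13.5 VM were not called apart (0.47 ± 0.172, adjusted p = 0.0252), although without replicate 1 of E13.5 VM they were (0.62, adjusted p = 0.00457). Each of the 4 other tissues was above E13.5 SM, from 13.1-fold in E13.5 VM to 49.1-fold in E13.5 MM (3.72 ± 0.207 and 5.62 ± 0.218). The muscle genes were also high in E16.5 FP, with 12960, 19950, 12290, 11770 and 2043 CPM in its samples, in the order of the Tbx15 values above. Without replicate 5, the sample of FP with the fewest muscle counts, the log2 fold change of FP over E16.5 MM was 1.09. E13.5 MM, at 111 to 420 CPM of muscle genes, had a Tbx15 mean of 2666 ± 290.2. The part of muscle in the Tbx15 levels was not tested.

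Tbx18, the paralog of Tbx15, is known from the epicardium, the ureter and the somites, and lies at chr9:87702800-87731260 on the minus strand. It had 1770, 2151, 2359, 1995 and 3158 normalized counts in E16.5 FP and 1520, 1736, 1568, 1468 and 1832 in E16.5 MM. Values at E13.5 were 2237, 2469, 2936, 2520 and 2813 in MM, 1285, 1097, 1252, 1516 and 1166 in VM, and 587, 669, 435, 675 and 1040 in SM. Samples of neighbouring tissues overlapped except that E13.5 SM lay below all others, and the order of the means was that of Tbx15. Tbx18 was higher in E13.5 MM relative to E13.5 VM (1.04 ± 0.165, adjusted p = 5.93e-05) and lower in E16.5 MM relative to E13.5 MM (-0.68 ± 0.164, adjusted p = 0.00155), the directions of Tbx15 at smaller sizes. E16.5 FP over E16.5 MM reached 0.49 ± 0.164 (adjusted p = 0.0218), under the fold for a call. The highest fat pad value, 3158, was again that of replicate 5. Against E13.5 SM the fold was 3.36 in E16.5 FP, 2.39 in E16.5 MM and, at E13.5, 3.81 in MM and 1.86 in VM, all called. Per kb of exon, Tbx15 over Tbx18 was 0.960 to 1.58 in E16.5 FP, 0.557 to 0.931 in E16.5 MM and, at E13.5, 1.20 to 1.46 in MM, 0.527 to 0.935 in VM and 0.0654 to 0.192 in SM. The salivary tissue thus kept Tbx18 with little Tbx15.

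Tbx1, a factor of the pharyngeal arches and head muscles, lies at chr16:18580979-18590671 on the minus strand. It had 26.7, 91.2, 79.2, 51.8 and 128 normalized counts in E16.5 FP and 76.8, 88.7, 154, 93.6 and 103 in E16.5 MM. At E13.5 it had 217, 120, 208, 229 and 233 in MM, 49.5, 35.3, 65.1, 43.8 and 49.8 in VM, and 56.5, 11.5, 33.7, 51.3 and 33.8 in SM. Of the 5 tissues E13.5 MM was the highest, with 4 of its samples above all other samples and replicate 2, at 120, within the range of the E16.5 tissues. Tbx1 was 4.12-fold higher in E13.5 MM relative to E13.5 VM (2.04 ± 0.344, adjusted p = 0.000103), the largest change of the 9 members in that comparison, and 5.36-fold higher than in E13.5 SM (2.42 ± 0.351, adjusted p = 1.74e-06). It was lower in E16.5 MM (-0.96 ± 0.331, adjusted p = 0.0185) and in E16.5 FP (-1.42 ± 0.336, adjusted p = 0.000947) than in E13.5 MM, with overlap in both cases. Below E13.5 MM the order was E16.5 MM, E16.5 FP, E13.5 VM and E13.5 SM, and no tissue was called apart from the next. Tissues farther apart in this order did differ: E16.5 MM was higher than E13.5 VM (1.08 ± 0.342, adjusted p = 0.0102) and E13.5 SM (1.46 ± 0.348, adjusted p = 0.000719), without overlap in either case. E16.5 FP was called over E13.5 SM (1.008 ± 0.348, adjusted p = 0.0124), but not without replicate 5 of E16.5 FP (0.74, adjusted p = 0.0654). It was not called over E13.5 VM (0.63 ± 0.343, adjusted p = 0.126), except without replicate 1 of E16.5 FP (0.84, adjusted p = 0.0286).

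Tbx22, a palate factor mutated in X-linked cleft palate, lies at chrX:107667964-107688978 on the plus strand and marked E13.5 SM. It had 9.997, 5.95, 14.8, 10.4 and 23.3 normalized counts in E16.5 FP and 41.3, 43.1, 49.3, 77.4 and 45.3 in E16.5 MM. The E13.5 samples had 84.8, 99.5, 77.1, 76.7 and 91.9 in MM, 66.7, 40.5, 56.5, 39.4 and 26.3 in VM, and 1302, 1349, 846, 769 and 1061 in SM. The lowest salivary sample stood well above the highest of all others, 99.5. Against E13.5 SM the log2 fold change was -6.37 ± 0.291 in E16.5 FP, -4.37 ± 0.251 in E16.5 MM and, at E13.5, -3.63 ± 0.237 in MM and -4.54 ± 0.251 in VM, with adjusted p values of 1.08e-15, 9.93e-14, 1.77e-12 and 5.85e-14. Tbx22 is X-linked, and for it, as for all members, stage and sex cannot be told apart in comparisons across ages. The neural markers were also higher in E13.5 SM, at 260 to 305 CPM, and their part in the Tbx22 level was not tested. At lower levels Tbx22 also differed among the trunk tissues. It was higher in E13.5 MM relative to E13.5 VM (0.91 ± 0.240, adjusted p = 0.00958), lower in E16.5 MM relative to E13.5 MM (-0.74 ± 0.242, adjusted p = 0.0133) and lower in E16.5 FP relative to E16.5 MM (-1.996 ± 0.298, adjusted p = 8.42e-06). That last call rested on the mean of E16.5 MM, 51.3, and without replicate 4 of E16.5 MM, its highest sample, the mean fell under 50 at a log2 fold change of -1.82 (adjusted p = 2.9e-05). For the same reason E16.5 FP was not called below E13.5 VM (-1.83 ± 0.296, adjusted p = 9.11e-06), although their samples did not overlap, and was called without replicate 5 of E13.5 VM (-1.97, adjusted p = 1.95e-06).

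Tbx20, a heart factor, lies at chr9:24718138-24774303 on the minus strand and had the lowest level per kb of the 9, at most 5.94 in E13.5 SM. Its samples in E13.5 SM had 89.7, 35.4, 80.8, 81.8 and 68.6 normalized counts, against 10.9 to 56.0 in E16.5 FP, 14.1 to 49.7 in E16.5 MM and, at E13.5, 7.65 to 13.7 in MM and 2.08 to 22.6 in VM. The other 4 tissues were each called lower than E13.5 SM, by log2 fold changes of -1.48 ± 0.453 in E16.5 FP, -1.44 ± 0.453 in E16.5 MM and, at E13.5, -2.84 ± 0.486 in MM and -2.64 ± 0.480 in VM. The 2 E16.5 tissues overlapped with E13.5 SM, and the 2 E13.5 tissues did not. E16.5 FP and E16.5 MM had means of 25.5 ± 17.8 and 26.3 ± 14.3, and E13.5 MM and E13.5 VM had 9.82 ± 2.41 and 11.5 ± 8.50, all too low for a call between them. Within E16.5 MM, replicate 4 had the highest Tbx20, the highest Tbx22 and the highest Tbx4.

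Genes studied with Tbx1 or Tbx22 in the pharynx and jaw formed a list of 14, of which 11 were tested. In E13.5 MM over E13.5 SM, 3 were higher (14.5% of all tested genes) and 4 lower (15.6%), and the median log2 fold change was -0.32 against 0.03 over all genes. Eya1, a transcriptional coactivator of the pharyngeal arches, was lower in E13.5 MM, at 82.6 ± 31.5, than in E13.5 SM, at 464 ± 79.1. Hes1, a Notch target, was higher in E13.5 MM, at 1335 ± 186, than in E13.5 SM, at 542 ± 35.3. For E13.5 MM over E13.5 VM, where Tbx1 and Tbx22 were both higher, 2 of the 11 were called, both lower (2.66% of all tested genes). One was Msx1, a homeobox factor of the jaw, at 37.7 ± 5.34 in E13.5 MM, against 77.5 ± 38.8 in E13.5 VM.

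Genes studied with Tbx3 in the onset of mammary development formed a list of 12, all tested. In E13.5 MM over E13.5 VM, where Tbx3 was higher, 1 of them was higher (3.79% of all tested genes) and 2 were lower (2.66%). The list's median log2 fold change there was 0.02. The higher one was Fgf10, and the lower ones were Gli3, a transducer of hedgehog signals, at 1571 ± 91.3 in E13.5 MM, against 3576 ± 739 in E13.5 VM, and Lef1, a transcription factor of the canonical Wnt pathway, at 1138 ± 84.1 in E13.5 MM, against 2456 ± 220 in E13.5 VM. Between E16.5 MM and E13.5 MM, 3 of the 12 were higher, as were 12.6% of all tested genes, and 2 were lower, as were 7.16%. The list's median was 0.09. Among the higher ones were Pthlh, a hormone of the mammary bud epithelium, at 109 ± 61.1 in E16.5 MM, against 28.4 ± 18.1 in E13.5 MM (1.96 ± 0.486, adjusted p = 0.0019), and Fgf10 (1.89 ± 0.132, adjusted p = 2.06e-11). The epithelial markers, at 14.1 to 102 CPM in E16.5 MM and 3.60 to 14.1 CPM in E13.5 MM, moved with Pthlh, and their part in it was not tested. Among the lower ones, Bmp4, a signal that acts upstream of Tbx3 in mammary line positioning, was 159 ± 30.2 in E16.5 MM, against 1092 ± 177 in E13.5 MM (-2.78 ± 0.201, adjusted p = 7.3e-11). Lef1, like Tbx3, was lower in the fat pad than in the mammary mesenchyme, with 61.1 ± 10.9 in E16.5 FP, against 1028 ± 260 in E16.5 MM. Unlike Tbx3, it was higher in E13.5 VM, at 2456 ± 220, than in E13.5 SM, at 142 ± 43.8.

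The other T-box genes gave a list of 8: T (brachyury), Tbr1, Eomes, Tbx6, Tbx10, Tbx19, Tbx21 and Mga. The filter kept 5 of them, all but Tbx10, Tbx19 and Tbx21, and 0 of the 5 were called by edgeR or by DESeq2 in any of the 10 comparisons. For T, Tbr1, Eomes and Tbx6 no call was possible, since every tissue mean lay under the 50 normalized counts required. Their lack of calls thus does not show equal levels. By edgeR's unadjusted p, 13 of the 50 pairs of a gene and a comparison were under 0.05. Relative to E13.5 MM, the fat pad had less T (-1.62 ± 0.389, adjusted p = 0.00105), without overlap. Relative to the salivary tissue, E16.5 MM had more Tbr1 (1.08 ± 0.36, adjusted p = 0.0106), also without overlap. Mga, a partner of Max that carries a T-box, was the one with a high level, at 7399 ± 525 normalized counts in E16.5 FP, 7067 ± 801 in E16.5 MM and, at E13.5, 7233 ± 441 in MM, 7103 ± 759 in VM and 10010 ± 896 in SM. It was lower in each of the 4 other tissues than in E13.5 SM, with adjusted p values of 1.17e-05 to 6.17e-05, but by log2 fold changes of only -0.44 to -0.50. The samples of T lay between 4.96 and 52.7, with the mean highest in E13.5 MM, 36.9 ± 11.03, and lowest in E16.5 FP, 12.1 ± 9.41. Tbr1, Eomes and Tbx6 had tissue means of 17.6 or less.

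The genes with a pattern most like that of each member were found over the 5 tissue means, as the smallest root mean square difference in centred log2 CPM among 14788 genes. For Tbx3 the nearest was Cacnb2, a calcium channel subunit, at a difference of 0.0799, with 93.8 normalized counts in E16.5 FP, 414 in E16.5 MM and, at E13.5, 268 in MM, 90.0 in VM and 315 in SM. It was followed by Slc8a3 and Kctd8. For Tbx18 it was Stc2 at 0.0912, then Bves and Tc2n, and for Tbx4 it was Spsb4 at 0.0919, then Glcci1 and Chl1. Tbx2 was nearest to Ssh3 at 0.108, then Gm15666 and Cacna1i. For Tbx20 the nearest were Cyb561 at 0.136, Pla2g4a and Dst, and for Tbx1 Gbp6 at 0.215, AI661453 and Tll1. Tbx5 stood nearest to 3 Hox genes, Hoxc6 at 0.267, Hoxc4 at 0.505 and Hoxb3 at 0.561, all of them near 0 in E13.5 SM. Less close matches were found for Tbx22, with Fstl5 at 0.429, Ina and Rundc3a, and for Tbx15, with Slc22a3 at 0.487, Mgp and Gm10721. Among the members themselves the nearest pairs were Tbx2 with Tbx3, at 0.422, and Tbx1 with Tbx18, at 0.473, while the paralogs Tbx15 and Tbx18 were 1.33 apart and Tbx4 and Tbx5 were 2.95 apart. These distances rest on 5 tissue means and have no test.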

How the data were processed

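RNA-Seq libraries (Ovation SoLo) were made from 25 mesenchyme pools. The authors ran Salmon 0.99.0 against mm10 and deposited its estimated counts, rounded to whole numbers, as 1 table of genes by samples. The submitters' processing notes also name FastQC 0.11.8, MultiQC 1.9 and Trimmomatic 0.39. The annotation release and strand use are not given in the sources used here. Salmon divides reads between transcripts that share sequence, so counts of overlapping genes are uncertain.

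Samples were grouped by the tissue in their labels. The identifiers were matched to symbols in GENCODE M21, which named 35505 of 35880 genes. Rows with no symbol held 0.0805% of counts. No libraries were identical. Genes kept by filterByExpr (17657) were fitted with edgeR 4.0.16 in R 4.3.3 with TMM factors of 0.923 to 1.09, 1 mean per tissue, no covariate and robust quasi-likelihood. Adjusted p values are Benjamini-Hochberg over all 17657 genes. SEs were derived from the fit as the absolute log2 fold change over the root of F. Counts per kb used the union of annotated exons.

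The 9 members and all lists were chosen with earlier results of these data known, so no p is adjusted over a list and lists are described by counts and medians. Named genes were the members, the other T-box genes, up to 4 called genes with the largest change of each list in a comparison, and the 3 genes nearest in pattern to each member; of these, the text gives those it needs. Values of some list and marker genes are not reported here. The lists were other T-box genes, limb field genes, genes repressed by Tbx2 or Tbx3, mammary initiation genes, pharyngeal and jaw genes, and 10 marker lists. The fit was tested on simulated counts. Alternatives were DESeq2 1.42.0 (Wald test), its size factors, no filter, a fit of 2 tissues, a replicate block, each replicate left out, a mean over both tissues and the adjusted p alone. Other steps were run with matplotlib 3.10.9, numpy 2.4.6 and pandas 2.3.3 under Python 3.11.15.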

Additional observations from a re-analysis of the deposited data

Results flagged for a closer look

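In 3 of the 45 groups formed by 9 genes and 5 tissues, a single sample stood far from the other 4. Chance alone gives about 1 such group in 20. Tbx1 had 119.5 normalized counts in replicate 2 of E13.5 MM, below the other 4 samples at 207.7 to 233.2. Tbx5 had 17.89 in replicate 5 of E13.5 SM, above the other 4 at 0 to 3.832. Tbx22 had 77.44 in replicate 4 of E16.5 MM, above the other 4 at 41.28 to 49.27.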

How the results depend on the processing

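Of the 90 pairs of a member and a comparison, 61 were called. None of the 61 changed direction in any alternative, 3 lost the call without 1 replicate and 8 lost it in another alternative. Of the 29 uncalled pairs, 5 gained a call without 1 replicate and 8 in another alternative. DESeq2's Wald test and its size factors changed 0 of the 90 calls, and all 45 tissue means moved by less than 1 SD with those size factors. The number of members called between E13.5 MM and E13.5 VM was 7 in all alternatives, and that between E16.5 FP and E16.5 MM lay between 4 and 7. With the mean taken over both tissues, Tbx20 lost its 4 calls against E13.5 SM, Tbx22 its calls in E16.5 FP over E13.5 MM and over E16.5 MM, and Tbx4 that in E16.5 FP over E16.5 MM. With only 2 tissues in the fit, Tbx1 in E16.5 FP over E13.5 SM was 1.04 with an adjusted p of 0.0517. The same fit lost the calls of Tbx4 (0.848, adjusted p = 0.0429) and Tbx22 (-1.998, adjusted p = 0.00115) in E16.5 FP over E16.5 MM, where 4 members in place of 6 were called.

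The sign changed in 6 uncalled pairs, all near 0. Without 1 replicate, Tbx20 ran from -0.47 to 0.18 in E13.5 MM over E13.5 VM and from -0.55 to 0.30 in E16.5 FP over E16.5 MM, Tbx4 from -0.056 to 0.19 in E13.5 MM over E13.5 SM, Tbx2 from -0.044 to 0.13 in E16.5 MM over E13.5 SM, Tbx22 from -0.005 to 0.34 in E16.5 MM over E13.5 VM, and Tbx3 from -0.10 to 0.14 in E16.5 FP over E13.5 VM. Tbx2 in E16.5 MM over E13.5 SM was also -0.028 with no filter and -0.005 with the replicate block, and Tbx3 in E16.5 FP over E13.5 VM was 0.012 with DESeq2's size factors, 0.011 with its Wald test and 0.003 with 2 tissues in the fit. The causes were not tested.

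Samples that share only a replicate number deviated from their tissue means with a correlation of -0.37 to 0.29 and matched best with their own number in 18 of 100 cases. The numbers were thus not used as pairs, and the replicate block changed 0 of the 90 calls, with a largest shift of 0.13 in log2 fold change. By the adjusted p alone, the genes called over all tested were 2747 in place of 1139 for E13.5 MM over E13.5 VM, 8720 in place of 3494 for E16.5 MM over E13.5 MM, 9353 in place of 4495 for E16.5 FP over E13.5 MM, 5960 in place of 2494 for E16.5 FP over E16.5 MM, 9365 in place of 4111 for E16.5 MM over E13.5 VM and 9721 in place of 4840 for E16.5 FP over E13.5 VM. Over E13.5 SM they were 12653 in place of 6981 for E16.5 FP, 12019 in place of 6202 for E16.5 MM, 10781 in place of 5314 for E13.5 MM and 10754 in place of 5339 for E13.5 VM. The lists of genes most like a member depend on the measure: by correlation of the 5 tissue means, 1 of the 3 genes was shared for Tbx2, Tbx3 and Tbx18 and 0 for the other members.

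The lowest levels limit precision. Tbx5 in E13.5 SM rests on 27 counts, and Tbx20 in E13.5 MM on 53. Litters could not be fitted.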
